A study of Mus musculus with 6 samples.

Results

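The matrix metalloproteinase (Mmp), ADAMTS (Adamts), ADAMTS-like (Adamtsl) and tissue inhibitor of metalloproteinases (Timp) genes were followed in RNA-seq libraries of mouse dental epithelial cells taken at postnatal day 0. This epithelium gives rise to the ameloblasts, which secrete enamel. Members were the protein-coding genes of the deposited table whose symbol starts with Mmp, Adamts, Adamtsl or Timp followed by a digit, without the enamel protease Mmp20. This gave 48 of 24959 genes: 20 Mmp, 19 Adamts, 5 Adamtsl and 4 Timp genes. The groups were 3 conditional Pkm knockout libraries (Pkm cKO), labelled PKM knockout, and 3 control libraries, labelled WT. Pkm encodes the M-type pyruvate kinases of the last step of glycolysis. The sources used here name no Cre driver, deleted exon or strain, and no allele carried by the controls. Replicates are called biological, with no word on pooling of animals, so p-values rest on the spread between these libraries.

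Mmp and Adamts enzymes are secreted or membrane-bound proteases that carry zinc in the active site and are made as inactive proenzymes. Mmp enzymes cut collagens, gelatin, basement membrane and many cell-surface proteins, and Adamts enzymes cut proteoglycans, procollagens and microfibril proteins. Adamtsl proteins resemble the Adamts accessory domains but have no protease domain. Timp proteins bind the active site and block it, and Timp2 also helps the membrane enzyme Mmp14 to activate pro-Mmp2. In tooth development these proteases remodel the matrix between epithelium and mesenchyme, and in the surrounding bone they serve resorption.

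Total counts were 30588350 to 39085792 reads in Pkm cKO libraries and 38130829 to 39415700 in controls. Across the 15930 genes with enough reads to test, log2 CPM (scaled CPM, read counts over the scaled library size) correlated at r = 0.944 to 0.966 between Pkm cKO libraries, 0.981 to 0.986 between controls and 0.918 to 0.969 between groups. The lowest values within the Pkm cKO group and between groups belonged to pairs with Pkm cKO replicate 3. Pkm, the check of the labels, had 309, 395 and 350.5 CPM in Pkm cKO replicates 1 to 3, against 1281, 1185 and 1049 CPM in control replicates 1 to 3 (log2 fold change -1.74, SE 0.159, adjusted p 0.0109, edgeR quasi-likelihood test). The labelled cell type was checked with markers. The 6 epithelial markers summed to 8258 to 8978 CPM in Pkm cKO libraries and to 11071 to 13239 CPM in controls. Markers of mesenchyme and fibroblasts, which also make many Mmp and Adamts enzymes, were abundant in both groups, so both held RNA of other cell types. The 12 markers summed to 18747 to 40659 CPM in Pkm cKO libraries and to 20100 to 31744 CPM in controls. This sum, mostly Col1a1 and Col1a2, was above the epithelial sum in every library, and such sums do not give shares of cells. Of these 12 markers, 8 were higher in every Pkm cKO library than in any control. The 4 ameloblast markers summed to 5474, 709 and 353 CPM in Pkm cKO libraries and to 24936, 21826 and 10582 CPM in controls, lower in every Pkm cKO library than in any control. No marker of these lists was at 0. In such bulk samples a different number of cells of a type and a different RNA amount per cell cannot be told apart.

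Of the 48 members, 38 had enough reads to be tested, namely 13 of 20 Mmp, 17 of 19 Adamts, all 5 Adamtsl and 3 of 4 Timp genes. Gelatinase gene Mmp2 was the 1 member past the threshold (edgeR adjusted p under 0.05 over all genes), higher in Pkm cKO libraries, and 0 members passed lower. For comparison, 0.552% of all tested genes passed, 0.345% higher and 0.207% lower. At an unadjusted p under 0.05, 15 members were higher and 1 lower in Pkm cKO libraries, against 9.57% and 7.9% of all tested genes. Log2 fold changes (Pkm cKO over control) were above 0 for 29 of the 38 tested members, against 50.8% of all tested genes, with a median of 0.51 for the members and 0.01 for all tested genes. Tested proteases had a median of 0.62, with 23 of 30 above 0, and the 3 tested Timp genes a median of 0.41, with 2 of 3 above 0. The order of these 2 medians turned without Pkm cKO replicate 2, at 0.63 for the proteases and 0.66 for the Timp genes, and without Pkm cKO replicate 3 they were 0.52 and 0.15. Groups did not overlap for 11 tested members, 10 higher and 1 lower in Pkm cKO libraries, against 23.3% of all tested genes (11.2% higher and 12.2% lower). All 10 higher members were proteases, and the lower one was Adamtsl2. With DESeq2, 7 members passed, all higher, against 7.05% of all tested genes. Without Pkm cKO replicate 3, 27 members stood above 0, with a median log2 fold change of 0.47, against 0.01 for all genes tested there. Mmp2 still was the 1 member past the threshold, against 0.77% of all genes tested there.

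**Figure D1:**
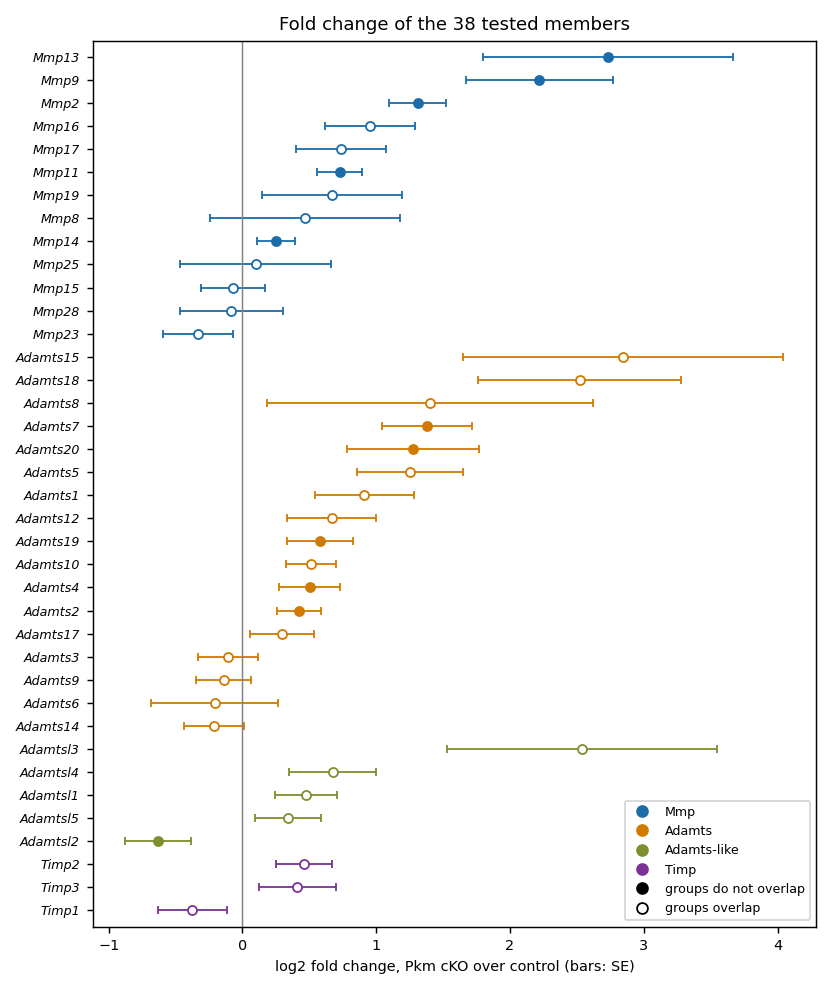
Log2 fold change of each tested member, Pkm cKO over control, on the horizontal axis, with bars for the standard error; filled points mark members whose 3 Pkm cKO and 3 control libraries did not overlap. Mmp13, Mmp9 and Mmp2 lead the Mmp genes, and the 3 Timp points lie between -0.37 and 0.46.

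The 2 gelatinases and the collagenase Mmp13 had the highest fold changes of the Mmp genes. Mmp2 (gelatinase A), made mostly by mesenchymal cells, had 267, 198 and 348 CPM in Pkm cKO replicates 1 to 3, against 94.2, 108 and 126 CPM in control replicates 1 to 3. Every Pkm cKO library lay above every control, and Mmp2 rose to a mean of 271 ± 75.0 CPM in Pkm cKO libraries, against 109 ± 15.9 CPM in controls (SD, n = 3 each; log2 fold change 1.31, SE 0.213, adjusted p 0.0444, edgeR quasi-likelihood test). The call was lost when any 1 control was left out (edgeR adjusted p 0.258, 0.209 and 0.167 without control replicates 1, 2 and 3), with limma-voom (0.0730) and in edgeR without robust estimation (0.0621). Its log2 fold change was 1.10 without Pkm cKO replicate 3.

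Mmp9 (gelatinase B), an enzyme abundant in osteoclasts, had 568, 187 and 557 CPM in Pkm cKO libraries, against 141, 55.6 and 85.4 CPM in controls. Replicates 1 and 3 of the Pkm cKO group were far above the other 4 libraries, and replicate 2 was above the highest control by less than the range of the controls (log2 fold change 2.22, SE 0.548, adjusted p 0.135, edgeR). Mmp13 (collagenase-3), the main interstitial collagenase of rodents and a product of osteoblasts and cartilage cells, had 361, 59.6 and 289.5 CPM in Pkm cKO libraries and 11.8, 39.9 and 55.2 CPM in controls. The same 2 Pkm cKO libraries were high, while Pkm cKO replicate 2 and control replicate 3 were nearly level (log2 fold change 2.73, SE 0.931, adjusted p 0.249, edgeR). Neither gene passed the threshold in this fit. With DESeq2 both passed (adjusted p 5.32e-06 for Mmp9 and 0.0347 for Mmp13), and without Pkm cKO replicate 2 Mmp9 passed in edgeR (adjusted p 0.0444). The 6 markers of osteoclasts (Acp5, Ctsk, Dcstamp, Ocstamp, Atp6v0d2 and Calcr) summed to 910.2, 214 and 672 CPM in Pkm cKO libraries and to 213, 87.6 and 116 CPM in controls. Replicates 1 and 3 of the Pkm cKO group were again the highest, and control replicate 1 was the highest control for this sum as for Mmp9. For Mmp13 control replicate 1 was the lowest control. The osteoclast sum of Pkm cKO replicate 2 was nearly level with that of control replicate 1. Of the 6 osteoclast markers 3 had separate groups, and 3 (Ctsk, Atp6v0d2 and Calcr) overlapped. None of these 6 markers was at 0 over the libraries, and 0 passed singly (edgeR; all 6 had an unadjusted p under 0.05, higher in Pkm cKO libraries). The 8 markers of macrophages and other immune cells summed to 176, 112 and 187 CPM in Pkm cKO libraries, against 61.7, 63.4 and 58.5 CPM in controls, with all 8 higher by log2 fold change and 1, C1qc, past the threshold (edgeR). The 6 markers of odontoblasts and osteoblasts summed to 3785, 1147 and 435 CPM in Pkm cKO libraries, against 5401, 4479 and 2507 CPM in controls. In every library but Pkm cKO replicate 3 this sum was mostly Dspp, an odontoblast gene. By log2 fold change 4 of its markers were lower in Pkm cKO libraries, namely Dspp (-1.49), Dmp1 (-1.03), Phex (-0.52) and Bglap (-0.52). Their groups overlapped, as did those of Sp7 (0.07). The osteoblast marker Ibsp had 219, 116 and 207 CPM in Pkm cKO libraries, against 85.4, 106 and 108 CPM in controls (log2 fold change 0.86). Of this list, Ibsp alone had separate groups. Of the 12 mesenchyme and fibroblast markers, 10 had a log2 fold change above 0, with a median of 0.71, and 0 passed singly (edgeR; 8 had an unadjusted p under 0.05, all higher in Pkm cKO libraries). These 8 had separate groups, as Mmp2 did, and were Msx1 (1.07), Barx1 (0.82), Twist1 (1.12), Prrx1 (1.26), Pdgfrb (0.93), Vim (0.54), Col3a1 (1.92) and Lum (0.60). The summed level of this list, mostly Col1a1 and Col1a2 (log2 fold changes -0.09 and -0.14), was 40659, 23607 and 18747 CPM in Pkm cKO libraries and 30671, 31744 and 20100.2 CPM in controls, and overlapped. The part of these cell types in the values of Mmp2, Mmp9 and Mmp13 was not tested.

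**Figure D2:**
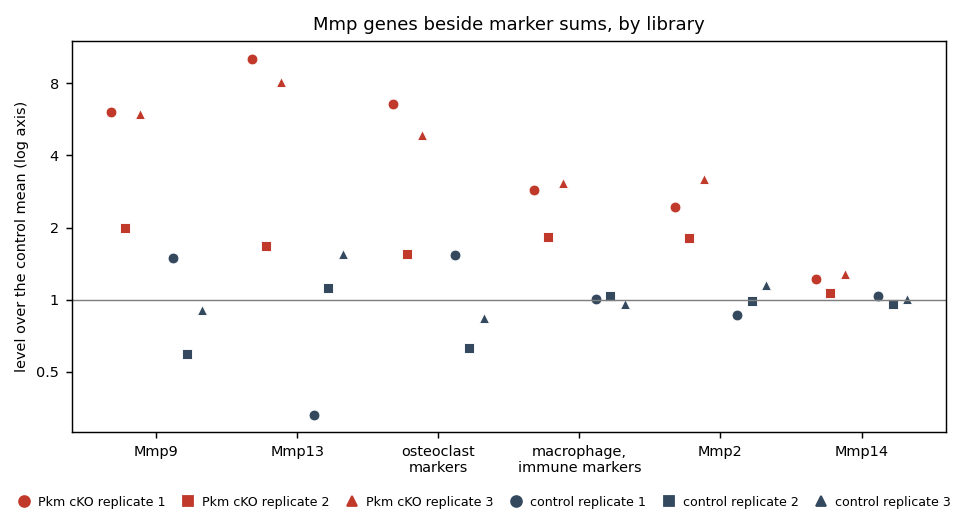
Level of Mmp9, Mmp13, Mmp2 and Mmp14 and of the summed osteoclast and immune markers in each library, divided by the mean of the 3 controls, on a log axis. Mmp9 and Mmp13 are high in Pkm cKO replicates 1 and 3, as is the osteoclast sum, and Mmp14 lies between 0.959 and 1.29 in the 6 libraries.

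Mmp13 lies in a cluster of Mmp genes on chromosome 9, in which the RefSeq annotation (GRCm38.p6) holds 10 protein-coding Mmp genes. Of the 7 members in this cluster, Mmp13 was the 1 with more than 18 reads in any library. Mmp12 had at most 13 reads, Mmp8 18, Mmp7 10, Mmp3 6, and Mmp10 and Mmp27 1 each. Mmp20, which lies in the same cluster and is not a member, had 78.9, 8.86 and 2.66 CPM in Pkm cKO libraries and 297, 218 and 122 CPM in controls, so its groups were separated in the other direction from those of Mmp13. RefSeq promoter windows were found for 33 of the 48 members (36 windows). Mmp2 and Mmp9 were among the members without a window, so their promoters were not searched for either motif. The AP-1 motif TGANTCA, which reads the same on both strands, was present in the 250 bases before the start in 5 of these windows, against 6.75% of the 32851 windows of all genes. All 5 belonged to genes of this cluster, shown here because 1 of them was abundant and the other 4 nearly silent. Mmp12 and Mmp7 each had another window, at another annotated start, without an AP-1 match. The windows of Mmp8 and Mmp27 held none either. The Runx motif TGTGGT, searched on both strands, was in 5 member windows, against 14.0% of all windows, and in the Mmp13 window it did not overlap the AP-1 motif. The upstream sequences are from RefSeq (GRCm38.p6, 5′ to 3′), with AP-1 and Runx matches in capitals:
Mmp13, chr9:7272264-7272513, plus strand: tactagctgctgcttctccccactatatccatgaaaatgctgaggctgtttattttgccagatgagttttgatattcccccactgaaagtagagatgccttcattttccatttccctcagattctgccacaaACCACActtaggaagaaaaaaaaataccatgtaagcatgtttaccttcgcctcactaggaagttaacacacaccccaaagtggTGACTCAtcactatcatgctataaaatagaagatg
Mmp12, chr9:7347124-7347373, plus strand: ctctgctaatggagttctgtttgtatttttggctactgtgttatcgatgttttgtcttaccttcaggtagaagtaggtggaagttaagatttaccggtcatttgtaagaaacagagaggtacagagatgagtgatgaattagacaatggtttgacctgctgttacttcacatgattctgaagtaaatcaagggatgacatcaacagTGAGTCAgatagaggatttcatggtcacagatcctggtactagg
Mmp3, chr9:7445572-7445821, plus strand: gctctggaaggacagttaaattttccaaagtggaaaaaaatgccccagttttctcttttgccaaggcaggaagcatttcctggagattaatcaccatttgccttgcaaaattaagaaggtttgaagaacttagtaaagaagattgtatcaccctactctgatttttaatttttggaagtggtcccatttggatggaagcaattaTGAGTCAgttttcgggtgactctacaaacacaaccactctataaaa
Mmp10, chr9:7502092-7502341, plus strand: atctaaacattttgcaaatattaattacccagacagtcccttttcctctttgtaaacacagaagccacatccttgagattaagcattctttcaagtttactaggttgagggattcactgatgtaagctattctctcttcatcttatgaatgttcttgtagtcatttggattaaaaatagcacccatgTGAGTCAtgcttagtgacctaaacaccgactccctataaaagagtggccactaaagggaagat
Mmp7, chr9:7691840-7692089, plus strand: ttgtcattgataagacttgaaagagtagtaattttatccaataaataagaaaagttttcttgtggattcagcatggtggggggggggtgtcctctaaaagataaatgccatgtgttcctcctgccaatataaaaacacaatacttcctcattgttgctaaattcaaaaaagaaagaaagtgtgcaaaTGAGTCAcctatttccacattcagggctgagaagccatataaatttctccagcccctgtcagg
In these windows the first base of the AP-1 match stood 35 bases before the start in Mmp13, 44 in Mmp12, 46 in Mmp3 and 63 in Mmp10 and in Mmp7. A match is a run of letters and no measure of binding, and the same motif preceded both the abundant gene and the nearly silent ones.

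Mmp14, the membrane-type enzyme that cuts fibrillar collagen and activates pro-Mmp2, was the most abundant member per length, at 215 CPM per kilobase of exon in Pkm cKO libraries and 181 in controls (mean of 3 libraries). Next by the same measure came Mmp9 (138), Mmp13 (88.6), Mmp2 (88.0) and Timp2 (72.5) in Pkm cKO libraries, and Timp2 (52.8), Mmp2 (35.5), Adamts17 (34.8) and Mmp9 (29.6) in controls. In Pkm cKO libraries the SDs of Mmp9 and Mmp13 exceeded their distance from the next gene in that order, and in controls Mmp2, Adamts17 and Mmp9 differed by less than the SD of Mmp9. Mmp14 itself had 922, 806 and 971 CPM in Pkm cKO libraries, against 781, 724 and 760.1 CPM in controls. The groups did not overlap, but the distance was small and did not pass (log2 fold change 0.25, SE 0.141, adjusted p 0.389, edgeR). Mmp11 (stromelysin-3), an enzyme activated by furin inside the cell, had 31.8, 36.8 and 31.3 CPM in Pkm cKO libraries and 20.4, 19.2 and 20.8 CPM in controls. It varied little within either group (log2 fold change 0.73, SE 0.170, adjusted p 0.0864, edgeR), and it did not pass. Among the other membrane-type genes, Mmp15, Mmp16, Mmp17 and Mmp25 had overlapping groups and log2 fold changes of -0.07, 0.95, 0.74 and 0.10. Mmp25 turned to -0.55 without Pkm cKO replicate 3, and Mmp15 to 0.16 without Pkm cKO replicate 1. Overlap was also seen for Mmp23 (-0.33), Mmp28 (-0.08), an enzyme of keratinocytes, Mmp19 (0.67) and Mmp8 (0.47), the neutrophil collagenase, which had at most 18 reads in a library.

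**Figure D3:**
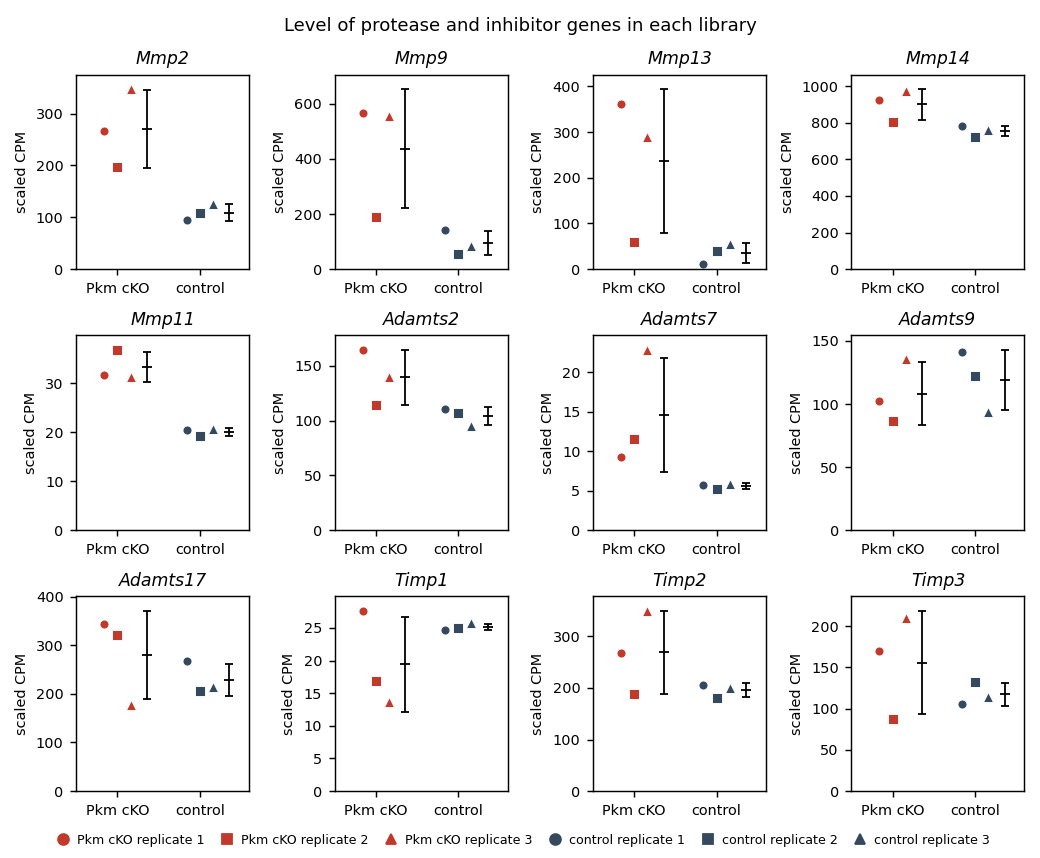
Scaled CPM of 12 members in each of the 3 Pkm cKO and 3 control libraries, with the mean and SD beside the points; each axis starts at 0. Mmp2, Mmp9, Mmp13, Mmp11, Mmp14, Adamts2 and Adamts7 have separate groups, and the 3 Timp genes, Adamts9 and Adamts17 overlap.

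None of the 17 tested Adamts genes passed the threshold (edgeR). At an unadjusted p under 0.05 in edgeR, 9 were higher and 0 lower in Pkm cKO libraries, against 9.57% and 7.9% of all tested genes. Per length, the most abundant Adamts genes were Adamts17 and Adamts10, both linked to fibrillin microfibrils. They were followed by Adamts2 in Pkm cKO libraries and by Adamts9, close to Adamts10, in controls. Adamts17 had 343, 321 and 177 CPM in Pkm cKO libraries, against 267, 206 and 214 CPM in controls, with Pkm cKO replicate 3 the lowest of the 6 libraries (log2 fold change 0.29, SE 0.240, adjusted p 0.567, edgeR). Adamts10 had 159.9, 150.3 and 102 CPM in Pkm cKO libraries and 85.4, 102 and 101 CPM in controls. Pkm cKO replicate 3 lay within the control range, and replicates 1 and 2 lay above it (log2 fold change 0.51, SE 0.188, adjusted p 0.205, edgeR).

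The procollagen N-proteinase gene Adamts2, whose enzyme trims the amino end of fibrillar procollagens, had 164, 114 and 140.2 CPM in Pkm cKO libraries, against 110.5, 107 and 94.9 CPM in controls. Its groups did not overlap, though Pkm cKO replicate 2 lay close to the controls (log2 fold change 0.42, SE 0.166, adjusted p 0.231, edgeR). The other 2 genes of this class, Adamts3 and Adamts14, overlapped, with log2 fold changes of -0.11 and -0.21. Of 7 proteoglycanase genes, 6 had a log2 fold change above 0 and 2 had separate groups, both higher in Pkm cKO libraries. Of all tested genes, 50.8% were above 0 and 23.3% had separate groups (11.2% higher in Pkm cKO libraries). Adamts4, an aggrecanase, had 13.5, 11.3 and 13.1 CPM in Pkm cKO libraries and 8.90, 10.4 and 7.50 CPM in controls. Adamts20, a versican-cutting enzyme known from belted mice, had 1.94, 1.95 and 5.66 CPM in Pkm cKO libraries and 1.44, 1.19 and 1.32 CPM in controls. Adamts4 was at a similar level in the 3 Pkm cKO libraries (log2 fold change 0.50, SE 0.226), whereas for Adamts20 replicate 3 stood apart, and its log2 fold change of 1.27 was 0.57 without that library. Adamts9, which cuts versican and was the most abundant of this class per length, had 103, 86.8 and 135 CPM in Pkm cKO libraries and 141, 122 and 94.0 CPM in controls, and its groups overlapped throughout (log2 fold change -0.14, SE 0.205, adjusted p 0.775, edgeR).

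Adamts7, which cuts the cartilage protein Comp, had 9.27, 11.6 and 22.8 CPM in Pkm cKO libraries, against 5.75, 5.20 and 5.86 CPM in controls. All 3 Pkm cKO libraries were above the narrow control range, replicate 3 most (log2 fold change 1.38, SE 0.336, adjusted p 0.0923, edgeR), and without replicate 3 the log2 fold change was 0.91. Adamts19, whose substrates are not well known, had 16.8, 10.8 and 13.5 CPM in Pkm cKO libraries and 7.43, 9.37 and 10.7 CPM in controls. Pkm cKO replicate 2 was barely above the highest control (log2 fold change 0.58, SE 0.250, adjusted p 0.271, edgeR).

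Several Adamts genes were high in 1 library. Of the 38 tested members, 17 had their highest level in Pkm cKO replicate 3, or 44.7%, against 23.9% of all tested genes, and 11 had it in Pkm cKO replicate 1, or 28.9%, against 13.5%. In 6 members replicate 3 was at least 2 times the highest of the other 5 libraries, or 15.8%, against 3.28% of all tested genes. These were Adamts15, Adamts8, Adamtsl3, Adamts20, Adamts18 and Adamts1, singled out after their values were seen. Adamts15 had 0.646, 0.698 and 9.16 CPM in Pkm cKO libraries and 0.735, 0.570 and 0.156 CPM in controls. Adamts8 had 0.226, 0.378 and 6.93 CPM in Pkm cKO libraries and 0.735, 1.22 and 0.908 CPM in controls, so that its first 2 Pkm cKO libraries were below every control. Without replicate 3 the log2 fold change of Adamts15 was 0.47, against 2.85 with it, and that of Adamts8 -1.64, against 1.40 with it. Adamts1, a proteoglycanase that also restrains vessel growth, had 17.9, 18.4 and 44.4 CPM in Pkm cKO libraries and 13.1, 18.4 and 11.4 CPM in controls. Adamts18 had 0.904, 3.52 and 9.41 CPM in Pkm cKO libraries and 0.490, 0.984 and 0.934 CPM in controls. Replicate 3 also had the highest endothelial marker sum, with 280.0, 236 and 477 CPM in Pkm cKO libraries and 306, 241 and 273 CPM in controls. The immune marker sum was highest there too, at 187 CPM, against 176 CPM in Pkm cKO replicate 1. The mesenchyme and fibroblast sum was lowest there, at 18747 CPM. Of that list Col3a1, Pdgfrb, Twist1 and Prrx1 had their highest level in replicate 3, and the other markers did not. The part of these cell types in the Adamts values was not tested. Adamts5, the main aggrecanase of mouse cartilage, was high in Pkm cKO replicates 1 and 3, at 18.5, 7.99 and 28.4 CPM in Pkm cKO libraries and 6.78, 7.87 and 8.35 CPM in controls. The other tested Adamts genes, Adamts12 and Adamts6, had overlapping groups and log2 fold changes of 0.67 and -0.21.

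**Figure D4:**
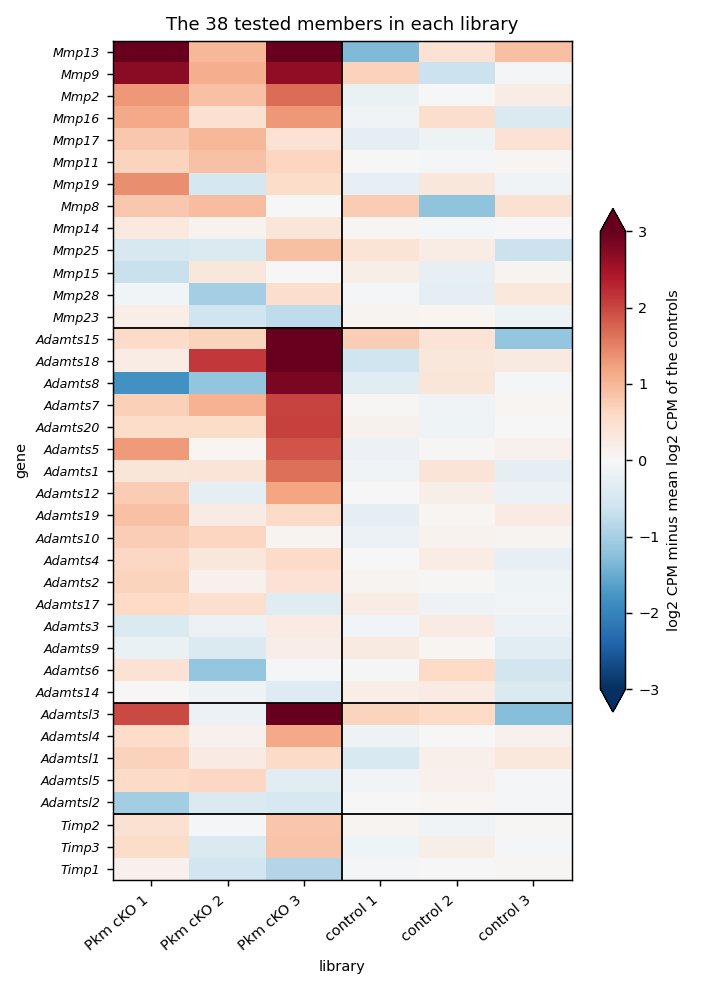
Log2 CPM of each tested member in each library minus the mean log2 CPM of the 3 controls, with families separated by lines. The colour scale is cut at a difference of 3 in either direction. In Pkm cKO replicate 3 Adamts15, Adamtsl3, Adamts18 and Mmp13 lie beyond its end, and in Pkm cKO replicate 1 Mmp13 does, followed by Mmp9.

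The Adamtsl genes encode matrix proteins without protease activity. Adamtsl2, which binds fibrillin and a carrier protein of TGF-beta, was the 1 tested member with all Pkm cKO libraries below all controls. It had 5.62, 8.66 and 8.27 CPM in Pkm cKO libraries, against 11.7, 12.0 and 11.2 CPM in controls (log2 fold change -0.63, SE 0.245, adjusted p 0.230, edgeR), and it did not pass. The other 4 overlapped between groups, with log2 fold changes of 0.48 for Adamtsl1, 2.54 for Adamtsl3, 0.67 for Adamtsl4 and 0.34 for Adamtsl5. Adamtsl3 is thinly covered, with 0.969, 0.174 and 3.18 CPM in Pkm cKO libraries and 0.354, 0.337 and 0.0519 CPM in controls.

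No Timp gene passed the threshold (edgeR; 0 of the 3 tested had an unadjusted p under 0.05). Timp1, a soluble inhibitor that blocks Mmp9 well and Mmp14 poorly, had 27.6, 16.9 and 13.7 CPM in Pkm cKO libraries, against 24.7, 25.0 and 25.7 CPM in controls. Replicates 2 and 3 of the Pkm cKO group were below every control and replicate 1 above them (log2 fold change -0.37, SE 0.256, adjusted p 0.489, edgeR). Timp2, the inhibitor that also takes part in pro-Mmp2 activation, had 269, 188 and 349.8 CPM in Pkm cKO libraries and 206, 181 and 201 CPM in controls. Pkm cKO replicate 2 lay within the control range (log2 fold change 0.46, SE 0.210, adjusted p 0.295, edgeR). Timp3, which binds to the matrix and also blocks Adamts4 and Adamts5, had 170.2, 87.0 and 210.2 CPM in Pkm cKO libraries and 106, 132 and 114 CPM in controls. Replicate 2 was below all controls and replicates 1 and 3 above them (log2 fold change 0.41, SE 0.286, adjusted p 0.503, edgeR). In each Timp gene the 3 controls were close together and the Pkm cKO libraries were spread more widely. Timp4 had 16, 6 and 3 reads in Pkm cKO libraries and 0, 0 and 1 reads in controls, too few to enter the test.

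Proteases and inhibitors were then set against each other within each library. These are ratios of read counts, which do not depend on library scaling and compare libraries rather than amounts of protein, and they carry no test. Summed reads of the 20 Mmp genes over those of the 4 Timp genes gave ratios of 4.80, 4.79 and 4.01 in Pkm cKO libraries and 3.44, 3.09 and 3.39 in controls. Every Pkm cKO ratio was above every control ratio, with means of 4.54 ± 0.452 in Pkm cKO libraries and 3.31 ± 0.192 in controls (SD, n = 3 each). Summed Adamts over Timp reads gave 1.95, 2.71 and 1.36 in Pkm cKO libraries and 2.12, 1.98 and 1.77 in controls, and these overlapped. For all 39 proteases together the ratio was 6.75, 7.50 and 5.38 in Pkm cKO libraries and 5.56, 5.06 and 5.16 in controls, with replicate 3 inside the control range. Mmp2, Mmp9 and Mmp13 held 37.9, 20.3 and 38.7% of all protease reads in Pkm cKO libraries and 13.2, 11.9 and 15.2% in controls. Leaving these 3 genes out, which was decided after their values were seen, the protease to Timp ratio averaged 4.49 ± 1.37 in Pkm cKO libraries and 4.55 ± 0.238 in controls (SD, n = 3 each), and the groups overlapped.

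Single enzymes were also paired with an inhibitor known to bind them, pairs chosen after the values were seen. The ratio of Mmp2 to Timp2 reads was 0.992, 1.05 and 0.994 in Pkm cKO libraries, against 0.456, 0.596 and 0.627 in controls. It was nearly equal in the 3 Pkm cKO libraries, although both genes differed between them, and the means were 1.01 ± 0.0333 in Pkm cKO libraries and 0.560 ± 0.0911 in controls (SD, n = 3 each). The ratio of Mmp9 to Timp1 reads was 20.6, 11.1 and 40.6 in Pkm cKO libraries and 5.69, 2.22 and 3.32 in controls, separate but widely spread. Mmp14 to Timp2 gave 3.43, 4.28 and 2.78 in Pkm cKO libraries and 3.78, 4.01 and 3.79 in controls, which overlapped.

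**Figure D5:**
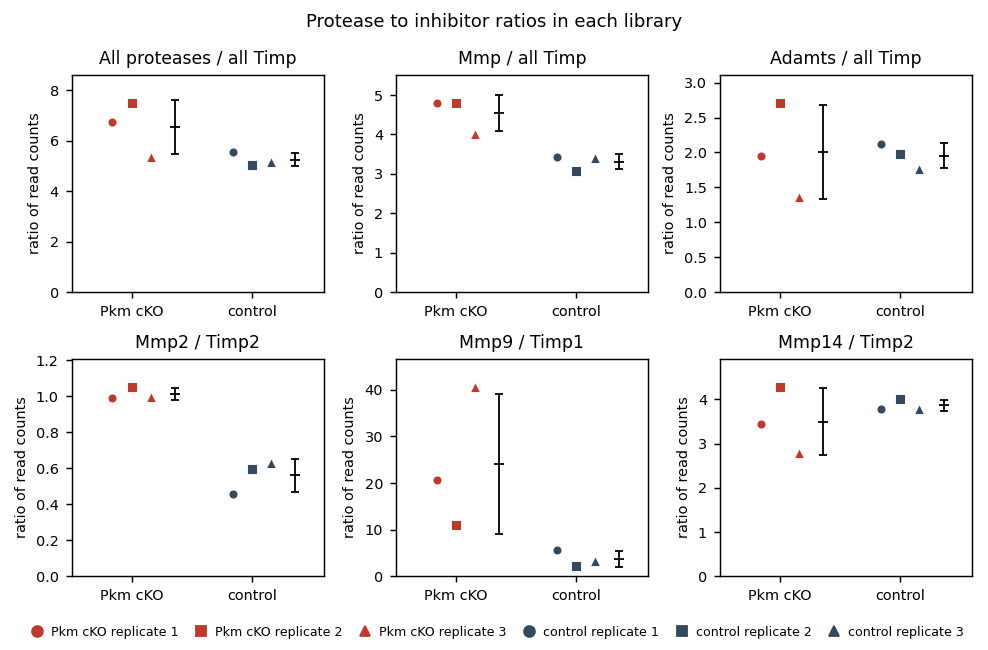
Ratio of protease to Timp read counts in each library for 3 sums and 3 gene pairs, with mean and SD beside the points and axes from 0. The Mmp sum, Mmp2 to Timp2 and Mmp9 to Timp1 separate the groups; the Adamts sum and Mmp14 to Timp2 do not.

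Other genes of matrix proteolysis were examined as lists. Of 15 listed activators and other inhibitors 13 were tested, with 7 above and 6 below 0, a median log2 fold change of 0.01 and 0 past the threshold (edgeR; 5 had an unadjusted p under 0.05, 3 higher and 2 lower). The lowest p belonged to Spock2, a proteoglycan of the testican family (92.4, 129 and 113 CPM in Pkm cKO libraries, 44.8, 59.4 and 68.0 CPM in controls). Next came Serpine2, a serine protease inhibitor of matrix (344, 154 and 301 CPM in Pkm cKO libraries, 103, 104 and 142 CPM in controls), and Bsg, an inducer of Mmp expression (879.9, 859 and 533 CPM in Pkm cKO libraries, 1158, 1108 and 1126 CPM in controls). Spock2 and Serpine2 were higher and Bsg lower in every Pkm cKO library than in any control. Of 14 listed other matrix metalloproteases 12 were tested, 6 above and 6 below 0, with a median of -0.13 and 0 past the threshold (edgeR; 7 with an unadjusted p under 0.05, 4 higher and 3 lower). Mme (neprilysin, a peptidase of the cell surface) had 319, 180.3 and 258 CPM in Pkm cKO libraries, against 693, 514 and 510.4 CPM in controls (log2 fold change -1.18, SE 0.222, adjusted p 0.0538, edgeR). The shedding proteases Adam9 (0.86) and Adam15 (0.61) had positive log2 fold changes and separate groups. Their relatives Adam10 (-0.35) and Adam19 (-0.54) had negative ones and separate groups, and Adam17 (0.05) overlapped. Of the 12 tested genes of this list, 3 had separate groups higher and 3 lower in Pkm cKO libraries, against 11.2% and 12.2% of all tested genes.

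Of the 16 listed matrix substrates 15 were tested, 12 above and 3 below 0, with a median log2 fold change of 0.34 and 0 past the threshold (edgeR; 7 with an unadjusted p under 0.05, all higher). Fn1 (fibronectin) had 675, 381 and 761 CPM in Pkm cKO libraries, against 288, 266 and 277 CPM in controls, and Fbn2 (fibrillin-2) had 122, 122 and 200.3 CPM in Pkm cKO libraries, against 72.6, 77.8 and 77.4 CPM in controls. For both, every Pkm cKO library was above every control. Acan (aggrecan), the cartilage proteoglycan that Adamts4 and Adamts5 cut, had 2.45, 0.814 and 6.65 CPM in Pkm cKO libraries and 0.300, 0.673 and 0.363 CPM in controls, low in both groups.

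The 10 members with too few reads to test had at most 26 reads in a library. They were Adamts13, which cuts von Willebrand factor, Adamts16, Mmp3, Mmp7, Mmp10, Mmp12, Mmp21, Mmp24, Mmp27 and Timp4. No difference in them was tested in the reported fit. They entered the alternative fit with no filter beyond 1 read, where none of them passed the threshold.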

How the data were processed

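RNA was sequenced from 6 libraries, 3 Pkm cKO and 3 control, made with a universal kit from 200 ng of total RNA, per the labels' protocols. The authors deposited whole-number read counts per gene. Fastp, HISAT2 and the build mm39 were used, per the submitters' processing notes. The sources used here give no counting program, strand setting or annotation, so reads of overlapping or antisense genes cannot be told apart. No coordinates of the files' build are given.

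Groups and replicate numbers came from the labels. Genes were kept by edgeR's filterByExpr (minimum count 10, minimum total 15), scaled by TMM and compared with edgeR's quasi-likelihood test with robust estimation (edgeR 4.0.16, R 4.3.3), two-sided, Benjamini-Hochberg adjusted over all 15930 genes tested, with a threshold of 0.05. SE was taken as log2 fold change over the root of F. CPM used the scaled library sizes. Log2 CPM used a prior count of 2. The biological coefficient of variation was 0.300, so counting error was small beside it for abundant members and not for those with few reads. Exon lengths were unions of GENCODE M21 exons (GRCm38). Alternatives were other scalings and filters, each library left out, a replicate block, DESeq2 1.42.0 and limma-voom (limma 3.58.1). Leaving out libraries from the count of groups without overlap was added after seeing the data. The procedure was also run on simulated counts with the same spread in both groups. The Pkm cKO libraries here were spread more widely than the controls, so that run does not bear on the calls, and no result rests on it.

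The members, gene lists, markers and motifs were chosen with earlier results of these data known. Named in full were members past the threshold, those with separate groups and a mean of at least 1 CPM, the 4 Timp genes and the 8 proteases with the highest mean CPM. Of the other lists, up to 3 genes with the lowest p were named. Others are said to be chosen after their values were seen, or stand with their family. Neutrophil and cartilage markers were also summed. Neutrophil markers had 3.55 to 12.9 CPM in Pkm cKO libraries and 2.31 to 6.04 CPM in controls. Cartilage markers had 86.0 to 115 CPM in Pkm cKO libraries and 104 to 119.7 CPM in controls. The cartilage sum was mostly Sox9 (log2 fold change -0.40). Of the 4 tested cartilage markers 3 were above 0, with a median of 0.86. These were Acan (2.89) and Comp (1.39), both low in reads and with separate groups, and Col2a1 (0.32), whose groups overlapped.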

Additional observations from a re-analysis of the deposited data

How the results depend on the processing

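The count of members past the threshold was 1 in the reported fit and under DESeq2 size factors in edgeR, upper-quartile scaling, a filter of 1 CPM in 3 libraries and without Pkm cKO replicate 3, with Mmp2 the member each time. It was 2 with no filter beyond 1 read (Adamts7 besides Mmp2), 7 with DESeq2 (Adamts5, Adamts7, Adamts18, Mmp2, Mmp9, Mmp11 and Mmp13) and 0 with limma-voom and in edgeR without robust estimation (at an unadjusted p under 0.05, 13 members higher and 1 lower with limma-voom, against 8.31% and 8.9% of all tested genes, and 16 higher and 1 lower without robust estimation, against 9.88% and 7.95%). Of all tested genes, 0.345% passed with DESeq2 size factors in edgeR, 0.471% with upper-quartile scaling and 0.699% with the filter of 1 CPM in 3 libraries. The share was 0.77% without Pkm cKO replicate 3, 2.08% with no filter beyond 1 read and 7.05% with DESeq2. Leaving out 1 library gave 0 to 3 members. Without control replicate 1, 2 or 3 the count was 0. At an unadjusted p under 0.05 in edgeR, 6, 9 and 11 members passed there, all higher, against 5.4, 6.24 and 8.17% of all tested genes higher. Without Pkm cKO replicate 1 the count was 3 (Adamts7, Adamts18 and Mmp2), against 3.92% of all tested genes past the threshold. Without Pkm cKO replicate 2 it was 3 (Adamts5, Mmp2 and Mmp9), against 1.13%. Over all genes the count was 88 as reported, 55 with DESeq2 size factors in edgeR, 518 with no filter, 1118 with DESeq2, 2 with limma-voom, 2 without robust estimation, and 0 to 640 when 1 library was left out (0 without control replicate 1, 2 or 3, with 1532, 1766 and 2495 genes at an unadjusted p under 0.05, and 640, 186 and 125 without Pkm cKO replicates 1, 2 and 3). The edgeR adjusted p of Pkm was 0.0792, 0.0600 and 0.0790 without control replicates 1, 2 and 3.

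With the replicate number as a block, 708 genes (4.44% of those tested) and 4 members (Adamts7, Mmp2, Mmp9 and Mmp11) passed. Same-numbered libraries deviated together with r = 0.235, 0.015 and 0.215 for numbers 1, 2 and 3. Pkm cKO replicate 1 had r = 0.07 and -0.278 with control replicates 2 and 3. Pkm cKO replicate 3 had r = -0.166 and -0.071 with control replicates 1 and 2. For Pkm cKO replicate 2, control replicate 3 (r = 0.024) was nearly level with control replicate 2. These values do not settle whether the numbers pair the samples. The labels name no pairing, and the reported fit used no block.

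The median log2 fold change of the tested proteases was 0.43 to 0.66 and that of the Timp genes 0.15 to 0.66 over all alternatives. The direction of Adamts9 turned without Pkm cKO replicate 2 (log2 fold change 0.0027, and -0.32 to 0.0027 over the libraries left out); the cause was not tested. Adamts3, Adamts6, Adamts8, Mmp15, Mmp25 and Mmp28 also turned when 1 library was left out, all with adjusted p of at least 0.208 there. Members with groups that did not overlap numbered 11 to 19 higher and 1 to 3 lower when 1 library was left out: 11 higher and 3 lower without Pkm cKO replicate 1 (19.3% and 19.9% of all tested genes), 19 and 1 without replicate 2 (16.4% and 17.3%), 15 and 2 without replicate 3 (17.2% and 19.5%), and 11 to 14 and 1 to 2 without a control (13.3 to 18.4% and 14.1 to 19.5%). At this depth 10 members had too few reads to test.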
